A study of Homo sapiens with 6 samples.

Results

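The genes of the constitutive proteasome were examined in MCF10A, an immortalised human mammary epithelial line that forms no tumours, after stable introduction of a short hairpin RNA (shRNA) against FRY. They were taken as all genes named PSMA, PSMB, PSMC or PSMD with a number, other than PSMB8 and PSMB9, that had a probe set naming that gene alone. This gave 32 genes, 15 of the core particle and 17 of the regulatory particle, among 19775 genes tested on the array, each represented by its probe set with the highest mean. RefSeq lists 37 such symbols. The other 5, PSMA6, PSMB11, PSMC5, PSMD7 and PSMD13, were not analysed here, and the only probe sets given for PSMA6 carry a further gene symbol. The control group held 3 samples of a puromycin-selected MCF10A clone with a non-targeting shRNA, and the shFRY group held 3 samples of a clone selected in the same way with the FRY shRNA. Both clones were grown in the same medium with epidermal growth factor, insulin, hydrocortisone and pituitary extract. Each construct is thus represented by 1 clone, sampled at varying passage. The tests measure only the spread among these samples, and differences between the clones cannot be told apart from an effect of the hairpin. Nor can fewer cells of a type be told apart from less RNA per cell.

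The proteasome degrades proteins tagged with ubiquitin. Its core particle is a barrel of outer alpha rings (PSMA genes), which gate entry, and inner beta rings (PSMB genes), which hold the proteolytic sites. The regulatory particle caps the barrel: a ring of ATPases (PSMC genes) unfolds substrates, and non-ATPase subunits (PSMD genes) bind and remove ubiquitin. Genes of the complex are known to be controlled together, by the factor NFE2L1 through antioxidant response elements and by the CCAAT-binding factor NF-Y. The members chosen by name include some genes that are no constitutive subunit: PSMB10 is an inducible catalytic subunit, PSMA8 belongs to the proteasome of the testis, and PSMD5, PSMD9 and PSMD10 are assembly chaperones of the ATPase ring.

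The promoters of 3 genes that fell are shown, together with PSMB10, the only member that fell and held neither motif. Of the members that fell, only PSMB3 and PSMD3 held the antioxidant response core, so the genes shown are not typical of them. The windows come from RefSeq on GRCh38.p14 and run from 250 bases before to 50 bases after the gene's start. They are PSMB3 (chr17:38752491-38752790, plus strand), PSMD3 (chr17:39980557-39980856, plus strand), PSMC3 (chr11:47426390-47426689, minus strand) and PSMB10 (chr16:67936801-67937100, minus strand). Capitals mark matches to the core of the antioxidant response element, TGACNNNGC, and to CCAAT. Both strands were searched, and a match on the other strand shows as its reverse complement. No match to one motif overlapped a match to the other in these windows.
PSMB3: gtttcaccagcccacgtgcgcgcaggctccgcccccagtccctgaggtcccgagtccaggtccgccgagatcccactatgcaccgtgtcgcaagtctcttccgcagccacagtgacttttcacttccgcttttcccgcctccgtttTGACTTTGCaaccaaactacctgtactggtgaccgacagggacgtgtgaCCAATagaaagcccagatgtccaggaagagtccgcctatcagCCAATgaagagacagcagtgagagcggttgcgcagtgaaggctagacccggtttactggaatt
PSMD3: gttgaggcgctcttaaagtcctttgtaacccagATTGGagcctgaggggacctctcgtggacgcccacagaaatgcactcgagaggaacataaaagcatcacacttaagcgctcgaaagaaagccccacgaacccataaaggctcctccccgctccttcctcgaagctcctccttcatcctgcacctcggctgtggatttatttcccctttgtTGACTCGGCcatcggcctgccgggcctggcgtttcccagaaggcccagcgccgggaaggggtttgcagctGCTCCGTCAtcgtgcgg
PSMC3: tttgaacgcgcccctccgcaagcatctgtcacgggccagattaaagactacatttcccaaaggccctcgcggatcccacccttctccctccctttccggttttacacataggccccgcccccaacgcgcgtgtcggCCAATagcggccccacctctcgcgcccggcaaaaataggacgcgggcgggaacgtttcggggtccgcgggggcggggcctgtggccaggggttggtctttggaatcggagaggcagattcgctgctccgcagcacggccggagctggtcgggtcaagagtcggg
PSMB10: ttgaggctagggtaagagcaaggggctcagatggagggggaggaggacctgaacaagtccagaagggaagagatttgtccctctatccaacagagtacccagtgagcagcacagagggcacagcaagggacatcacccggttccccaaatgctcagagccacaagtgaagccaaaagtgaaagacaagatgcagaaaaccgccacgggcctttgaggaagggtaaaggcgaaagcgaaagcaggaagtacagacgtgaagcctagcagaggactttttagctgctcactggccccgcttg

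Windows were found for 27 of the 32 members; some genes have several starts, and a gene was counted when any of its windows held the motif. CCAAT was present in 34.6% of all 35116 windows of this length and in 41.7% of the 15384 tested genes that had a window. Among the members it was present in 14 of 27 genes (51.9%). It was found in 9 of the 10 members that fell, as described below, and in 5 of the 17 members with a window that did not pass. This split rests on the brightest probe set of each gene. PSMB4, PSMD9, PSMD11 and PSMD12, counted as not passing, fell at another probe set and held no CCAAT. The 5 members without a window (PSMA7, PSMB1, PSMB6, PSMB7 and PSMD4) did not pass either. Over all genes, 48.1% of those called lower and 40.3% of those not called held it. The antioxidant response core was present in 13.3% of all windows, in 18.4% of tested genes and in 8 of 27 members, of which 2 fell and 6 did not pass. A match is a run of letters, and whether any factor bound there was not measured.

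Sample medians on the log2 scale were 3.048, 3.053 and 3.065 in control samples 1 to 3. They were 3.031, 3.035 and 3.017 in shFRY samples 1 to 3, below all control samples. The hairpin's target was first examined at its own probe sets. At the probe set that passed, FRY was at 4.23, 3.55 and 3.81 in control samples 1 to 3 and at 2.88, 3.31 and 3.14 in shFRY samples 1 to 3. The log2 difference was -0.75 (limma adjusted p = 0.0223 over 54613 probe sets), and the other 3 FRY probe sets did not pass. They include the brightest, the kind that represents each gene below, which differed by -0.49 with overlap (limma adjusted p = 0.203). Of 10 markers listed for basal mammary epithelium, KRT6A, KRT17 and TP63 were not analysed here. The other 7 (KRT5, KRT14, CDH1, EGFR, ITGB4, LAMB3 and SFN) had mean log2 levels of 10.12 to 10.14 in control and 11.11 to 11.27 in shFRY samples. Of these markers, 6 were called higher, with the largest log2 differences at KRT14 (2.92), LAMB3 (1.71) and ITGB4 (1.16). KRT5 (0.08) did not pass. Mean levels of fibroblast markers were 3.43 to 3.63 and 3.01 to 3.11, of immune markers 2.30 to 2.68 and 2.16 to 2.28, of endothelial markers 3.83 to 3.93 and 3.55 to 3.91, and of adipocyte markers 1.81 to 2.07 and 1.92 to 2.15. In these 4 lists 4 of 6, 3 of 5, 2 of 5 and 4 of 4 genes lay below the median of all probe sets in both groups. DCN (-2.79), KDR (-2.45) and PTPRC (-1.06) were called lower, and TEK (1.85) and CIDEC (0.59) higher. PECAM1, at a mean of 7.54 in control and 7.40 in shFRY samples, did not pass. The part of these marker differences in the results was not tested. The beta-actin control, whose 3' minus 5' difference reflects RNA length and amplification, was 2.33, 2.52 and 2.71 in control samples 1 to 3 and 2.88, 2.89 and 2.84 in the shFRY samples (exact permutation test, two-sided, p = 0.1, which is the lowest value this design can give). This measure moved with the group. The same difference for GAPDH overlapped between the groups, with means of -0.09 in control and -0.07 in shFRY samples (exact permutation test, two-sided, p = 0.4).

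Of the 32 members, 10 fell in shFRY cells, 0 rose and 22 did not pass at an adjusted p of 0.05 (limma, Benjamini-Hochberg over all genes). Without adjustment, 12 members were lower and 1 was higher at p below that value. Of all 19775 genes, 4077 were lower and 3773 higher at that unadjusted threshold. Over all genes, 16.0% were called lower, 13.7% higher and 29.8% in either direction, so that the share of members called in either direction (31.3%) was near the background while all of them were falls. The median log2 difference of the members was -0.17, against 0.03 over all genes, and 24 of 32 members had a negative difference, against 46.4% of all genes. The background depended on brightness. With only probe sets at or above the median level, 3303 of 11859 genes (27.9%) were called lower and 2552 higher. The median difference over those genes was -0.05. In that fit 11 of 31 members (35.5%) were called lower and 0 higher. In 22 of 32 members the samples of the groups did not overlap, 19 of them lower and 3 higher in shFRY, where 44.2% of all genes did not overlap (22.4% lower and 21.9% higher). At the brightest probe set, no member changed 2-fold. The members were measured with little spread: their median SD between samples of a group was 0.07 on the log2 scale, against 0.16 over all genes. The figures over all genes include dim ones, whereas most members are bright. Spread and overlap were not compared with equally bright genes. With the beta-actin difference as a covariate 1 member, PSMB10, passed (2.43% of all genes were called lower in that fit): the differences of the 10 members lay between -0.87 and -0.26 there, and the median SE of the members went from 0.10 to 0.19. With the trend and robust options of limma's eBayes step 18 members fell (17.8% of all genes did) and 1, PSMA8, rose.

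**Figure D1:**
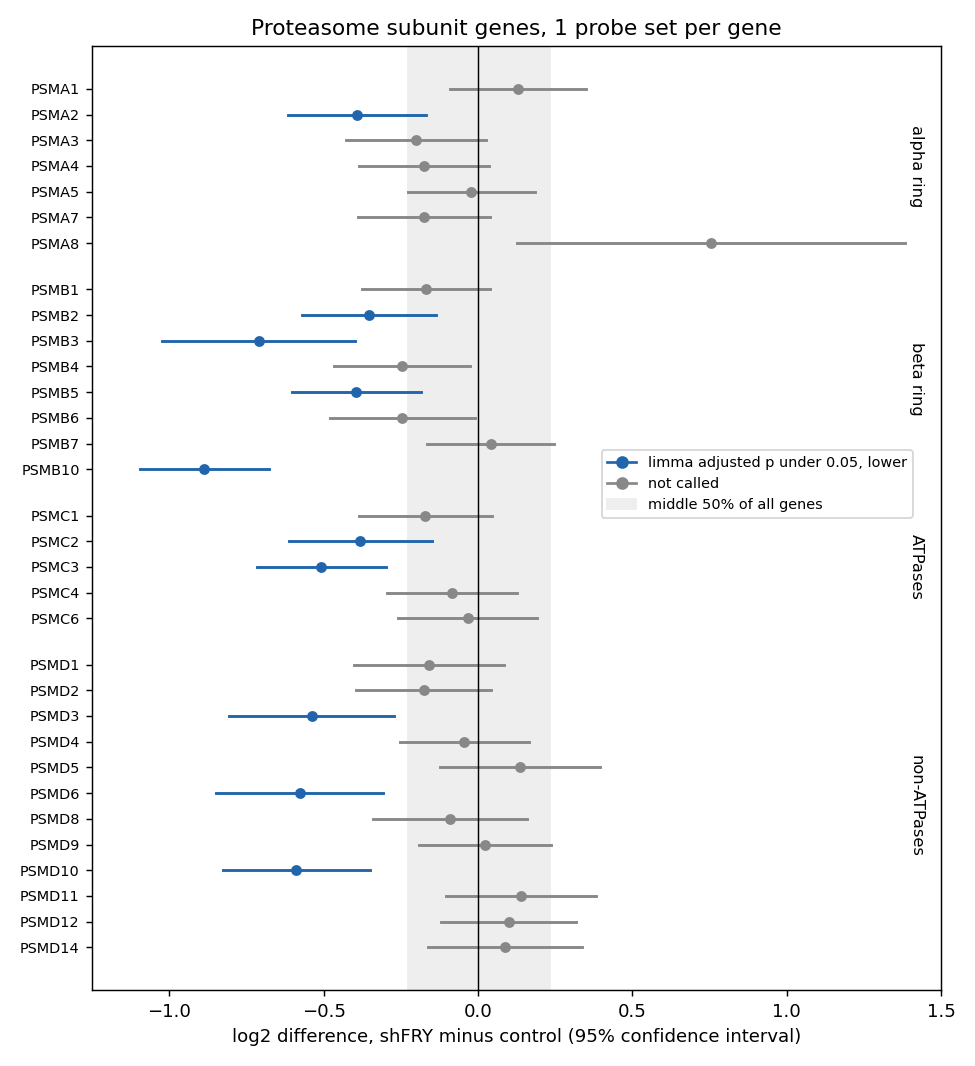
Log2 difference between shFRY and control samples (horizontal axis) for the 32 genes, grouped by ring or particle; points are limma estimates from 3 samples a group, bars their 95% confidence intervals, and blue marks an adjusted p under 0.05. The 10 genes that passed all lie on the lower side, between -0.89 and -0.35, and the shaded band spans the middle 50% of all genes (-0.23 to 0.23).

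The median difference of the core particle was lower than that of the regulatory particle. The median log2 difference was -0.20 over the 15 core genes and -0.09 over the 17 regulatory genes. Each held 5 falls (33.3% and 29.4% of its genes, against 16.0% of all genes). With all probe sets of a gene averaged, the regulatory median was -0.15 and that of the core -0.27, and without _x_at and _s_at probe sets they were -0.18 and -0.25. Taking each gene relative to its control mean, the median over the core genes was 0.01, -0.01 and -0.01 in control samples 1 to 3 and -0.18, -0.25 and -0.17 in shFRY samples 1 to 3. The regulatory genes gave -0.06, 0.03 and 0.02 in the control samples and -0.10, -0.12 and -0.11 in the shFRY samples. All shFRY samples thus lay below all control samples for both particles, with a wider gap for the core. The medians of the whole arrays were also lower in all shFRY samples. With median centring, the median log2 difference was -0.17 for the core and -0.063 for the regulatory particle. The ranges of single genes overlapped widely, from -0.89 to 0.76 in the core and from -0.59 to 0.14 in the regulatory particle, and no test was made of the difference between the particles. The order of the medians was the same under each of the 16 settings used. These settings refit the same samples, and the trend and robust options and the replicate block cannot change the medians. They are thus no independent evidence for the order. Without PSMA8, PSMB10 and the 3 chaperone genes, 8 of 27 genes fell (29.6%, against 16.0% of all genes), 4 in each particle. The medians of the core and regulatory particle were then -0.20 and -0.13.

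In the alpha ring, 1 of 7 genes fell (14.3%, near the 16.0% of all genes called lower). PSMA2, a structural alpha subunit, was at 11.00, 11.03 and 11.00 in control samples 1 to 3 and at 10.51, 10.71 and 10.63 in shFRY samples 1 to 3. The groups did not overlap, and the log2 difference was -0.39 (SE 0.10, limma adjusted p = 0.0168). This call was lost without control sample 2 or 3 (limma adjusted p = 0.0575 and 0.0524). PSMA3, PSMA4 and PSMA7, whose samples also did not overlap between groups, differed by -0.20, -0.18 and -0.18 and did not pass (limma adjusted p = 0.173, 0.196 and 0.206). PSMA1, whose shFRY samples lay entirely above the control samples (10.73, 10.64 and 10.55 against 10.52, 10.51 and 10.50), differed by 0.13 and did not pass (limma adjusted p = 0.360), nor did PSMA5 (-0.02). For PSMA5 the 95% confidence interval of -0.23 to 0.18 corresponds to a change between -14.7% and 13.6%. PSMA8, the testis form of PSMA7, was dim, at 1.94, 1.90 and 1.88 in the control samples and 2.26, 2.32 and 3.40 in the shFRY samples. Its difference of 0.76 rests mostly on shFRY sample 3 and did not pass (limma adjusted p = 0.0730); it was called higher without shFRY sample 1 (0.95, limma adjusted p = 0.0440) and without shFRY sample 3 (0.39, limma adjusted p = 0.0268).

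The beta ring, with the inducible PSMB10 counted, held the largest share of falls, 4 of 8 genes, against 40.0% of the ATPases. In 7 of 8 genes the shFRY samples lay entirely below the control samples. Over all genes, 16.0% were called lower and 22.4% were lower without overlap. Of its 3 constitutive catalytic genes, 1 passed. PSMB5, which carries the chymotrypsin-like activity that bortezomib blocks, was at 9.87, 9.84 and 9.89 in the control samples and at 9.41, 9.52 and 9.49 in the shFRY samples. Its log2 difference was -0.39 (limma adjusted p = 0.0129, SE 0.09), a change of -23.9% with a 95% confidence interval of -34.2% to -12.0%. PSMB6, the caspase-like subunit, was at 9.76, 9.56 and 9.58 and at 9.47, 9.36 and 9.35. The groups did not overlap, yet the difference of -0.25 did not pass (limma adjusted p = 0.110). PSMB7, the trypsin-like subunit, was at 10.49, 10.51 and 10.48 in the control samples and at 10.58, 10.53 and 10.50 in the shFRY samples, with overlap. Its difference was 0.04, with a 95% confidence interval of -0.16 to 0.25 (limma adjusted p = 0.776), so a fall as large as that of PSMB5 lies outside the interval, although the difference between these genes was not tested.

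Among the beta subunits without a proteolytic site, PSMB3 had the largest fall at the brightest probe set. It was at 9.50, 9.31 and 9.28 in the control samples and at 8.52, 8.52 and 8.91 in the shFRY samples. All shFRY samples were below all control samples, with shFRY sample 3 nearest to them, and the log2 difference was -0.71 (SE 0.14, limma adjusted p = 0.00514). PSMB2 was at 10.45, 10.40 and 10.37 in the control samples and at 10.10, 9.97 and 10.09 in the shFRY samples, a smaller gap without overlap. Its difference of -0.35 passed narrowly (SE 0.09, limma adjusted p = 0.0228) and missed the threshold without any 1 of the control samples or shFRY sample 2 (limma adjusted p between 0.0557 and 0.0767). PSMB4 (-0.25) and PSMB1 (-0.17) were lower without overlap and did not pass (limma adjusted p = 0.0919 and 0.205).

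PSMB10, the inducible counterpart of PSMB7, had the largest fall among the brightest probe sets of the members. It was at 5.14, 5.06 and 5.12 in the control samples and at 4.25, 4.18 and 4.22 in the shFRY samples, so the groups were far apart compared with their spread. The log2 difference was -0.89 (SE 0.09, limma adjusted p = 0.000242), a change of -45.9%. The other inducible catalytic genes, which are not counted among the members, did not fall. PSMB9, the counterpart of PSMB6, was at 6.13, 5.85 and 6.16 in the control samples and at 7.79, 7.76 and 7.72 in the shFRY samples. The rise was 1.71 in log2 units (limma adjusted p = 2.87e-05, SE 0.11). PSMB8, the counterpart of PSMB5, varied among control samples (5.58, 4.98 and 5.83) and overlapped the shFRY samples (5.81, 5.96 and 5.72), with a difference of 0.37 (limma adjusted p = 0.221).

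**Figure D2:**
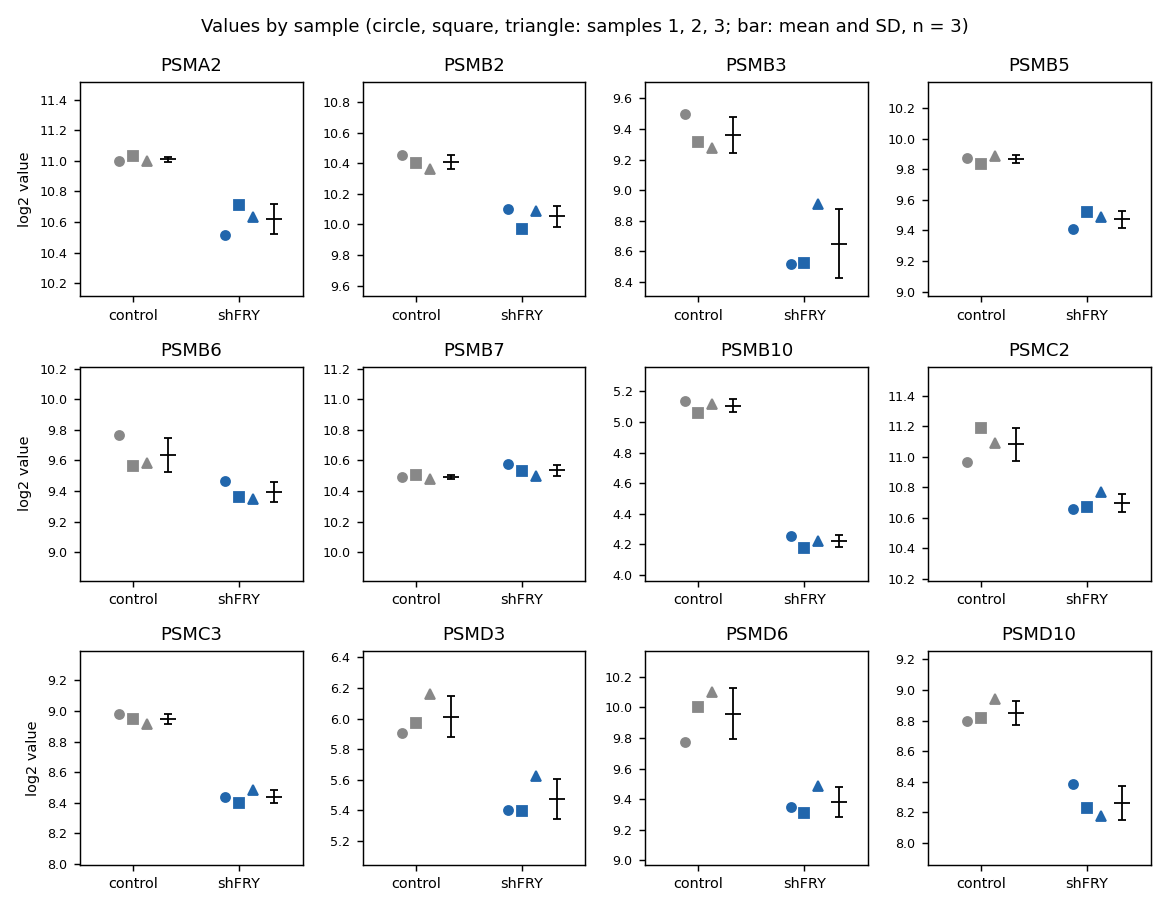
Deposited log2 values (vertical axis, each panel spanning the same range) of 12 subunit genes in the 3 control samples (grey) and the 3 shFRY samples (blue), with the mean and SD of each group beside the points. The groups are apart in every panel other than PSMB7, where values of 10.48 to 10.51 and 10.50 to 10.58 meet.

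In the ATPase ring of the regulatory particle, 2 of 5 genes fell (40.0%, against 16.0% of all genes). The difference was negative for all 5. PSMC3 was at 8.98, 8.94 and 8.91 in the control samples and at 8.43, 8.40 and 8.48 in the shFRY samples. The values of each group lay close together and the gap between the groups was several times that spread, with a log2 difference of -0.51 (SE 0.09, limma adjusted p = 0.00375). PSMC2 was at 10.97, 11.185 and 11.09 in the control samples and at 10.66, 10.67 and 10.77 in the shFRY samples. It fell, with a difference of -0.38 (limma adjusted p = 0.0226, SE 0.10), and the call was lost without control sample 2 or 3 or shFRY sample 1 or 2 (limma adjusted p between 0.0599 and 0.0845). PSMC1 (-0.17), PSMC4 (-0.08) and PSMC6 (-0.03), ATPases of the same ring, did not pass (limma adjusted p = 0.216, 0.539 and 0.837).

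Of the 12 non-ATPase genes 3 fell. PSMD3 and PSMD6 encode scaffold subunits of the lid, the part of the cap that removes ubiquitin chains. PSMD3 was at 5.91, 5.97 and 6.16 in the control samples and at 5.40, 5.39 and 5.63 in the shFRY samples, a log2 difference of -0.54 without overlap (SE 0.12, limma adjusted p = 0.00926). PSMD6 was at 9.78, 10.00 and 10.10 in the control samples and at 9.35, 9.31 and 9.49 in the shFRY samples, a difference of -0.58 without overlap (SE 0.12, limma adjusted p = 0.00689). PSMD10, also called gankyrin, assists assembly of the ATPase ring and is no part of the finished particle. It was at 8.79, 8.81 and 8.94 in the control samples and at 8.38, 8.23 and 8.17 in the shFRY samples, and fell, with a difference of -0.59 (limma adjusted p = 0.00351, SE 0.10).

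The non-ATPase genes with the best-known enzymatic and receptor roles did not pass. PSMD14, the deubiquitinase of the lid, differed by 0.09 (95% confidence interval -0.16 to 0.34), and PSMD4, a ubiquitin receptor, by -0.04 (95% confidence interval -0.25 to 0.17). The large scaffold subunits PSMD1 and PSMD2 differed by -0.16 and -0.18 (limma adjusted p = 0.305 and 0.208). The lid genes PSMD8 (-0.09), PSMD11 (0.14) and PSMD12 (0.10) and the chaperone genes PSMD5 (0.13) and PSMD9 (0.02) did not pass either, with limma adjusted p-values between 0.370 and 0.889.

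Probe sets of a gene did not always agree, and some genes fell only at a probe set other than the brightest. The members have 59 probe sets, of which 21 fell and 0 rose in a fit over all probe sets, where 12.2% of probe sets were called lower. They belong to 14 genes: the 10 above and PSMB4, PSMD9, PSMD11 and PSMD12, whose brightest probe set did not pass. The count was 11 without control sample 2 and 10 without control sample 3. At PSMD9, the dimmer probe set was at 5.41, 5.50 and 5.66 in the control samples and at 4.14, 4.27 and 4.31 in the shFRY samples, a log2 difference of -1.28 (limma adjusted p = 0.000147). The brighter probe set of that gene differed by 0.02, with overlap. At PSMD11, the dimmer probe set was at 5.96, 5.96 and 5.87 in the control samples and at 4.50, 4.65 and 5.22 in the shFRY samples, a difference of -1.14 (limma adjusted p = 0.00259), against 0.14 at the brighter one. At PSMB4, 2 of 3 probe sets fell (-0.43 and -0.37, limma adjusted p = 0.0171 and 0.0265).

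PSMA2, PSMC2, PSMB2 and PSMD10 fell at several probe sets. Both PSMA2 probe sets fell, by 0.88 and 0.39 on the log2 scale, as did all 3 of PSMC2 (-0.88, -0.49 and -0.38), 3 of 4 of PSMB2 (-0.98, -0.40 and -0.35) and both of PSMD10 (-0.59 and -0.57). PSMD6 had a further, dim probe set at 0.31 with overlap, and the mean of both probe sets gave -0.14, which did not pass (limma adjusted p = 0.478). Of the 18 members with several probe sets, 14 (77.8%) had a more positive difference at the brightest probe set than at the mean of the others, with a median gap of 0.13. Over all 10523 genes with several probe sets this share was 50.5%, with a median gap of 0.004. The brightest probe sets of the members lay at percentiles 92.1 to 99.3 of all probe sets by mean, except those of PSMA8, PSMB10 and PSMD3 (percentiles 37.1, 66.3 and 74.4). Which transcript or part of a transcript each probe set measures was not used here.

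**Figure D3:**
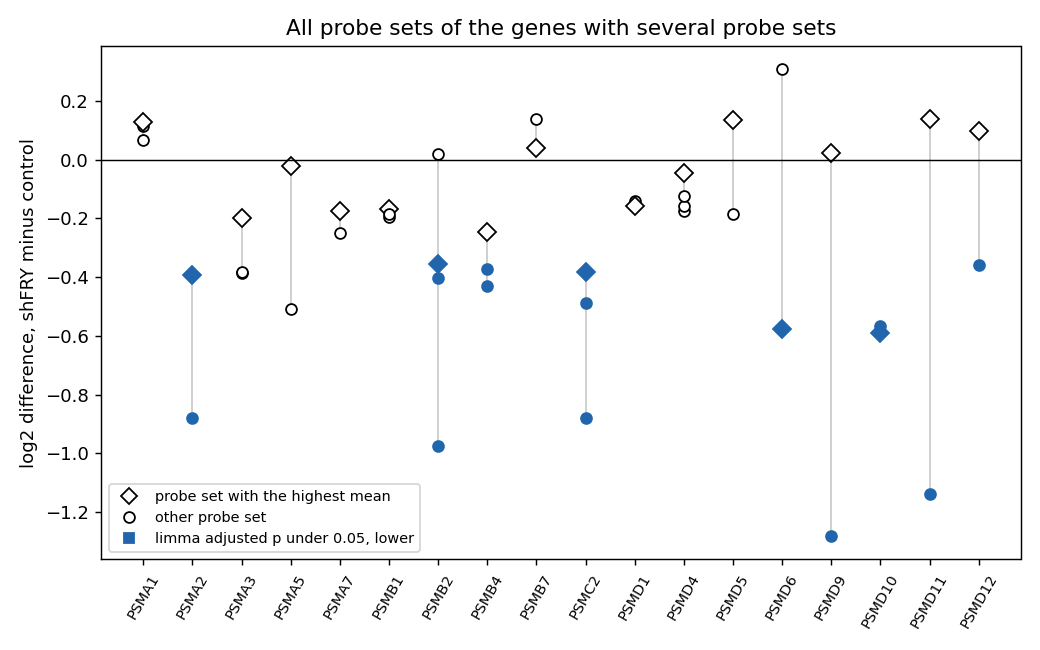
Log2 difference between shFRY and control samples (vertical axis) at each probe set of the 18 subunit genes with several probe sets; diamonds are the probe sets with the highest mean, circles the others, and blue marks an adjusted p under 0.05 in the fit over all probe sets. The widest gaps are at PSMD9 (-1.28 and 0.02) and PSMD11 (-1.14 and 0.14), where only the dimmer probe set passed.

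Other genes of the ubiquitin-proteasome pathway, taken from 8 lists, changed in both directions. Among the 42 measured genes that are not members, 14 rose (33.3%, against 13.7% of all genes) and 8 fell (19.0%, against 16.0%), with a median log2 difference of 0.15 (0.03 over all genes). In the list of transcription factors that act on proteasome genes, with the deglycosylase gene NGLY1 that serves to activate NFE2L1, 6 of 9 genes rose, 0 fell (0 also at an unadjusted p of 0.05) and 3 (NFE2L3, NFYA and NFYB) did not pass, with a median of 0.40. Of the 6, NGLY1 (0.42) did not pass without control sample 1 or 3 or shFRY sample 1 or 2, and the NF-Y subunit gene NFYC (0.35) did not without control sample 2 or 3 or shFRY sample 2 (limma adjusted p between 0.0515 and 0.0876). Without _x_at and _s_at probe sets they were at 0.12 and 0.02. The small MAF genes MAFF and MAFG, partners of these factors, rose by 1.04 and 0.58 (limma adjusted p = 0.000272 and 0.00252), and NFE2L2, the regulator of oxidative stress genes, rose by 0.44 (limma adjusted p = 0.0154). The call of NFE2L2 was lost without control sample 2 (limma adjusted p = 0.0601). It was also lost with the mean of probe sets (0.25, limma adjusted p = 0.0519). NFE2L1, named here for its known role and outside the rule for named genes, rose by 0.40 (limma adjusted p = 0.0214), a call lost without control sample 2 or 3 or shFRY sample 1 or 2 (limma adjusted p between 0.0579 and 0.0788).

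VCP, the unfoldase that extracts ubiquitinated proteins and hands them to the proteasome, fell. It was at 9.98, 10.11 and 10.05 in the control samples and at 9.34, 9.27 and 9.47 in the shFRY samples, a log2 difference of -0.68 (limma adjusted p = 0.00140). All 7 genes of the VCP list passed, 4 lower and 3 higher, where 29.8% of all genes passed. Not all of these calls held under other settings. FAF2, a membrane-bound cofactor of VCP (0.31, limma adjusted p = 0.0365), did not pass with quantile normalization, with the mean of probe sets, without _x_at and _s_at probe sets, or without any 1 of the control samples or shFRY sample 1 or 2 (limma adjusted p between 0.0532 and 0.129). FAF1, a ubiquitin-binding cofactor (0.38, limma adjusted p = 0.0175), was lost without control sample 1 or 3 or shFRY sample 1 (limma adjusted p between 0.0512 and 0.0581), was at 0.14 with the mean of probe sets and was at -0.18 without _x_at and _s_at probe sets. NSFL1C, a further cofactor (-0.62), was at -0.22 and did not pass without those probe sets. Its cofactor NPLOC4 fell by 0.76 on the log2 scale (limma adjusted p = 0.000877), and UBXN7, an adaptor that links VCP to ubiquitin ligases, rose by 0.79 (limma adjusted p = 0.00414). Among 5 shuttle receptors, 2 fell and 2 rose, where 16.0% of all genes fell and 13.7% rose. UBQLN4 was at -0.80, UBQLN2 at -0.47 and ZFAND5 at 0.49 (limma adjusted p = 0.00104, 0.0102 and 0.00603). Without probe sets of the _x_at and _s_at kind UBQLN2 was at -0.03 and ZFAND5 at 0.46, with limma adjusted p-values of 0.881 and 0.242. With the mean of probe sets UBQLN2 was at -0.25 and did not pass (limma adjusted p = 0.0547).

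The assembly chaperone gene PSMG4 fell by 0.82 on the log2 scale (limma adjusted p = 0.00230), and ECPAS, which encodes a proteasome adaptor, rose by 0.42 (limma adjusted p = 0.0201), while the other 5 of these 7 genes did not pass. PSMG4 was at -0.40 and did not pass without _x_at and _s_at probe sets. With the mean of probe sets PSMG4 was at -0.28 and narrowly missed the threshold (limma adjusted p = 0.05003). ECPAS missed the threshold without control sample 1 or 3 or shFRY sample 1 or 2 (limma adjusted p between 0.0536 and 0.0705). PSME4, an alternative cap of the core particle, rose by 0.46 (limma adjusted p = 0.00947), and the other 3 measured genes of that list, PSME1, PSME3 and PSMF1, did not pass. The polyubiquitin gene UBB fell by 0.53 on the log2 scale (limma adjusted p = 0.00295), and the activating enzyme genes UBA1 (-0.25) and UBA6 (0.14) did not pass. A list of 5 genes held regulatory particle subunits with other symbols (ADRM1 and SEM1) and proteins bound to that particle. Of these, 0 passed in limma and 0 had an unadjusted p below 0.05. The smallest p-values were those of UCHL5 (log2 difference 0.19, limma adjusted p = 0.150) and UBE3C (-0.16, limma adjusted p = 0.301). With the beta-actin covariate, MAFF (1.25), NPLOC4 (-0.91), PSMB9 (1.67) and PSMB10 (-0.87) passed, and the other genes of these lists named here as passing did not.

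**Figure D4:**
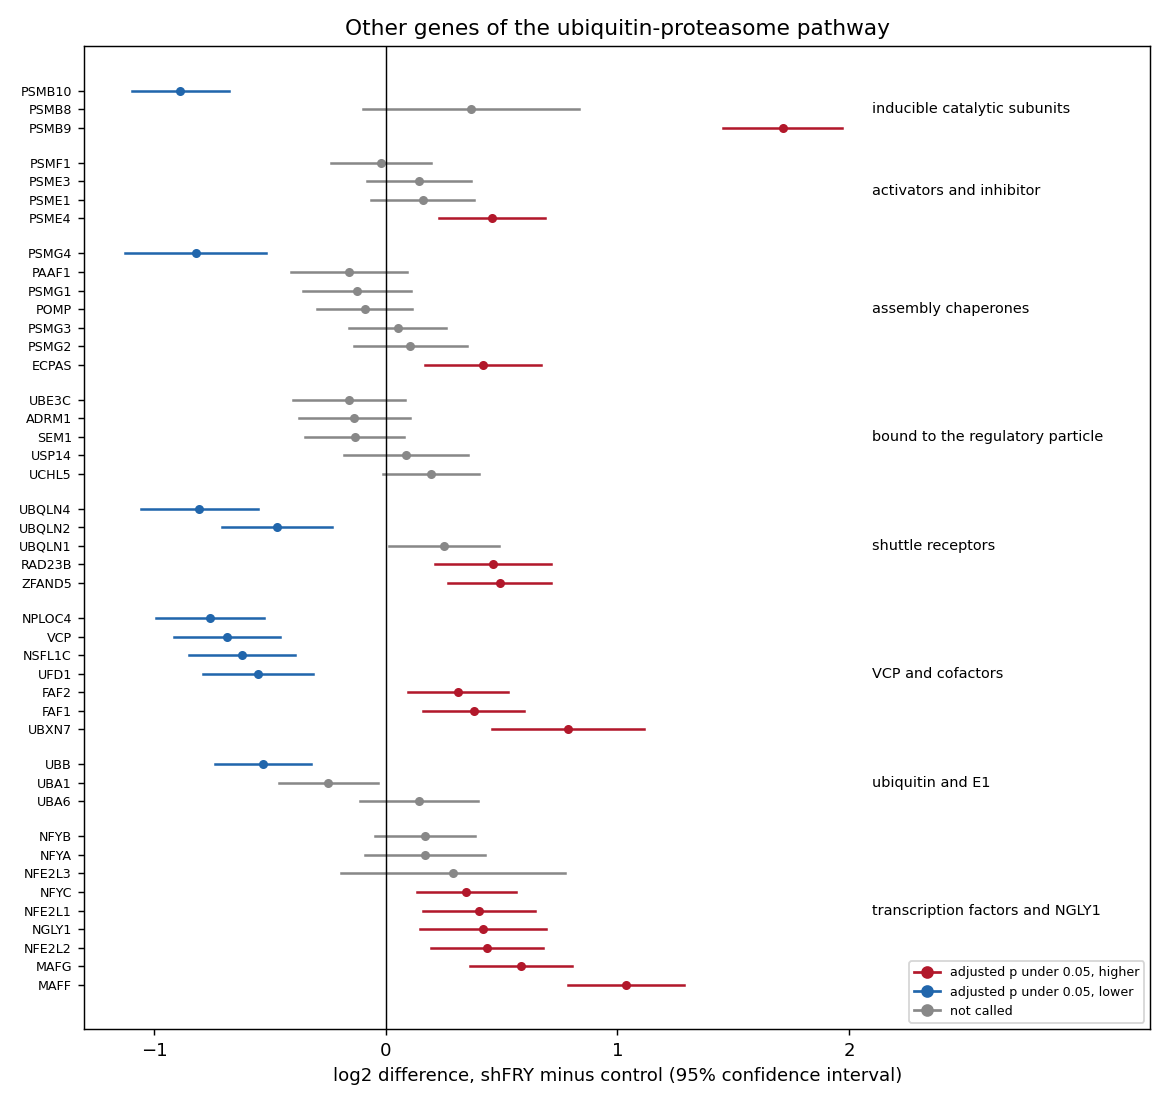
Log2 difference between shFRY and control samples (horizontal axis) with 95% confidence intervals (n = 3 samples a group) for the measured genes of 8 lists around the proteasome; red and blue mark an adjusted p under 0.05, higher and lower. The factor genes all lie to the right of 0 (0.17 to 1.04), whereas VCP (-0.68) and its cofactors fall on both sides.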

How the data were processed

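RNA from 6 cultures was amplified, labelled with biotin and hybridised to 1-colour arrays. The deposited log2 values are RMA output according to the labels (per the submitters' processing notes), with version and settings not given in the sources used here. As RMA usually makes array distributions alike, a shift common to most genes would be lost, and it compresses differences at dim and very bright probe sets. No scanner files were used. Of 54675 probe sets, 62 were controls and 41091 carried 1 symbol in the platform annotation, updated through Entrez IDs to RefSeq (GRCh38.p14). Groups came from the sample titles.

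Each of 19775 genes was represented by its probe set with the highest mean. shFRY was compared with control in limma 3.58.1 (R 4.3.3; lmFit, eBayes, no filter, 4 residual degrees of freedom), with Benjamini-Hochberg adjustment over all genes and a threshold of 0.05, and again over the 54613 probe sets other than controls. Precision is limited by the number of arrays. The code was tested on simulated data. Members and lists were chosen with earlier results of these data known. In full, up to 4 passing members per subunit class by size of change were described, with PSMB5, PSMB6 and PSMB7 in any case; in other lists, up to 3 passing genes, or the 2 with the smallest p. Alternatives covered scaling, variance model, dim probe sets, choice of probe set, array weights, replicate block, a beta-actin covariate and each sample left out. Listed genes without a probe set of their own were not analysed here.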

Additional observations from a re-analysis of the deposited data

How the results depend on the processing

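The 10 falls were the same genes with median centring, quantile normalization and array weights, and 0 members rose there. With the trend and robust options of eBayes 18 members fell and 1 rose, where 17.8% of all genes fell. With the beta-actin covariate 1 member fell, and 1026 of all genes passed against 5889. Leaving out each sample gave 7 to 10 falls and 0 to 1 rises (PSMA8), where 12.1% to 15.8% of all genes fell. Of the 10 calls, 7 held in all 6 such fits. The probe sets of members called then numbered 10 to 18 against 21. The core median was -0.17 with median centring, -0.22 over the upper part of probe sets, -0.27 with the mean of probe sets, -0.25 without _x_at and _s_at probe sets, -0.22 with the covariate, and -0.21 to -0.18 with a sample left out. The regulatory median was -0.063 with median centring, -0.12 with quantile normalization, -0.15 with the mean of probe sets, -0.18 without _x_at and _s_at probe sets, -0.15 with the covariate, -0.13 without PSMA8, PSMB10 and the chaperone genes (chosen after seeing the data), and -0.13 to -0.073 with a sample left out.

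Members that did not pass changed sign as follows: PSMA5 with median centring (0.0052), PSMC6 without shFRY sample 1 (0.00042, range -0.079 to 0.00042 with a sample left out), PSMD4 (0.039) and PSMD14 (-0.13) with the covariate, PSMD5 with the mean of probe sets (-0.025) and the covariate (-0.15), PSMD12 with the mean of probe sets (-0.13), and PSMD9 with quantile normalization (-0.0043), the covariate (-0.0022) and without shFRY sample 1 (-0.015, range -0.015 to 0.052 with a sample left out). Set by the probe sets used, PSMD9 was at -0.63 and PSMD11 at -0.50 with the mean of probe sets and PSMD11 at -1.14 without _x_at and _s_at probe sets, all called lower, PSMD6 was at -0.14 and not called with the mean of probe sets, and FAF1 was at -0.18 without _x_at and _s_at probe sets. The cause of the other changes was not tested.

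The samples share only a replicate number: same-numbered samples deviated together with correlations of -0.00019, -0.0024 and 0.0068. With that number as a block, 9 members and 5330 genes passed, and PSMB2 was the member lost (limma adjusted p = 0.0525); FAF2, NFYC and NGLY1 were lost among the other genes named (limma adjusted p = 0.0756, 0.0542 and 0.0567).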
